A study of Mus musculus with 8 samples.

Results

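Constitutive proteasome subunits were followed in pancreatic islets of Tcf1 knock-out and wild type mice. The members were all probe sets with a single annotated symbol of the Psma, Psmb, Psmc or Psmd series, leaving out Psmb8, Psmb9 and Psmb10, the subunits of the immunoproteasome. The rule found 49 of the 24965 probe sets measured, which stand for 35 of 13675 named genes. They comprise 7 genes of core alpha subunits, 8 of core beta subunits, 6 of ATPases and 14 of non-ATPase proteins. MG-U74A held 44 of these probe sets for 34 genes, and MG-U74B held 5 for 5 genes.

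Islet RNA was hybridised to 2 Affymetrix mouse array types, MG-U74A and MG-U74B. Each type had 2 arrays of islets labelled Tcf1 knock-out and 2 of wild type islets. These were 8 arrays in all, which the labels number as replicates 1 and 2 of each genotype on each array type. The labels do not say whether same-numbered arrays of the 2 types carried the same RNA. The sources used here do not give strain, sex, age or treatment, nor whether the islets of several animals were pooled, so the p-values may measure spread that is partly technical. Values are linear intensities, 1 per probe set, scaled to a common array mean. A value listed at or below 0 gives no level.

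The proteasome degrades proteins tagged with ubiquitin. Its core particle is a barrel of alpha rings, which gate the entrance, around beta rings, which hold the proteolytic sites. A regulatory particle caps the barrel. Its ATPases unfold the substrate and open the gate, and its non-ATPase subunits bind ubiquitin and cut it off before the substrate enters. Most of these subunits are needed for cell survival, and islet beta cells, which make large amounts of secreted protein, also use the complex to clear misfolded proteins drawn back from the endoplasmic reticulum. Some proteins with a Psmd symbol, Psmd5, Psmd9 and Psmd10, are chaperones that help assemble the base of the cap and leave before it is finished. Psmb11 belongs to a proteasome form of the thymus.

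The arrays of the genotypes differed in more than these genes. On MG-U74A the 3' control probe set of Gapdh over its 5' one, a ratio that is higher where RNA is less complete, was 0.943 ± 0.00849 on knock-out arrays and 3.19 ± 0.0499 on wild type arrays (SD, n = 2 each). The same ratio for actin was 1.14 ± 0.0269 on knock-out arrays and 1.46 ± 0.0157 on wild type arrays, a smaller difference. Markers of other cells moved as well. All 7 tested lymphocyte markers rose, with summed intensities over 10 genes of 21029 to 21635 in knock-out and 4140 to 4202 in wild type. Of these genes Cd3e was at or below 0 on both arrays of either genotype, and Cd22 and Cd79a on both wild type arrays. All 10 tested markers of macrophages and dendritic cells rose, with sums over 12 genes of 18383 to 18453 in knock-out and 5019 to 5205 in wild type, where Fcer1g was at or below 0. Of 10 fibroblast and stellate cell markers 8 rose and 1 fell, with sums of 17771 to 18894 in knock-out and 5792 to 5813 in wild type, where Acta2 was at or below 0. The 1 that fell was Col1a2, read from its brightest probe set, with means of 812 in knock-out and 1033 in wild type. The other Col1a2 probe set rose, with means of 1513 in knock-out and 134 in wild type. All 6 acinar markers fell, with sums of 4536 to 4970 in knock-out and 37477 to 37728 in wild type, and all 9 tested islet hormone and granule markers fell, with sums of 86202 to 94464 in knock-out and 137228 to 137849 in wild type. Of 8 endothelial markers 5 rose and 1 fell, with sums of 2668 to 2684 in knock-out and 2262 to 2305 in wild type. The part of these differences in the proteasome results below was not tested, and in bulk islets fewer cells of a type and less RNA per cell cannot be told apart.

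Proteasome subunit transcripts of the islets did not move together. On MG-U74A 5 of 6 ATPase genes and 5 of 7 tested core beta genes rose in knock-out islets, most core alpha genes gave no call, and the non-ATPase genes went both ways. With each gene read from its brightest probe set, 32 of the 34 genes were tested, of which 15 rose and 6 fell. Among all genes tested the same way 22.7% rose and 30.2% fell, 52.8% in all. Over all 37 tested probe sets 17 rose and 7 fell. A change was called at an adjusted p under 0.05 by limma, which pools the spread across probe sets, with p adjusted over all 7516 tested probe sets. Of those 7516, 52.9% were called, with 23.9% that rose and 29.0% that fell. Among the member probe sets 64.9% were called, with 45.9% that rose and 18.9% that fell. No test was made of whether these shares differ from those of all probe sets. The counts fell to 11 genes that rose and 3 that fell without wild type replicate 1, and to the same numbers without wild type replicate 2. Among all tested probe sets 16.0% rose and 14.7% fell without wild type replicate 1, and 15.7% rose and 14.4% fell without wild type replicate 2.

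**Figure D1:**
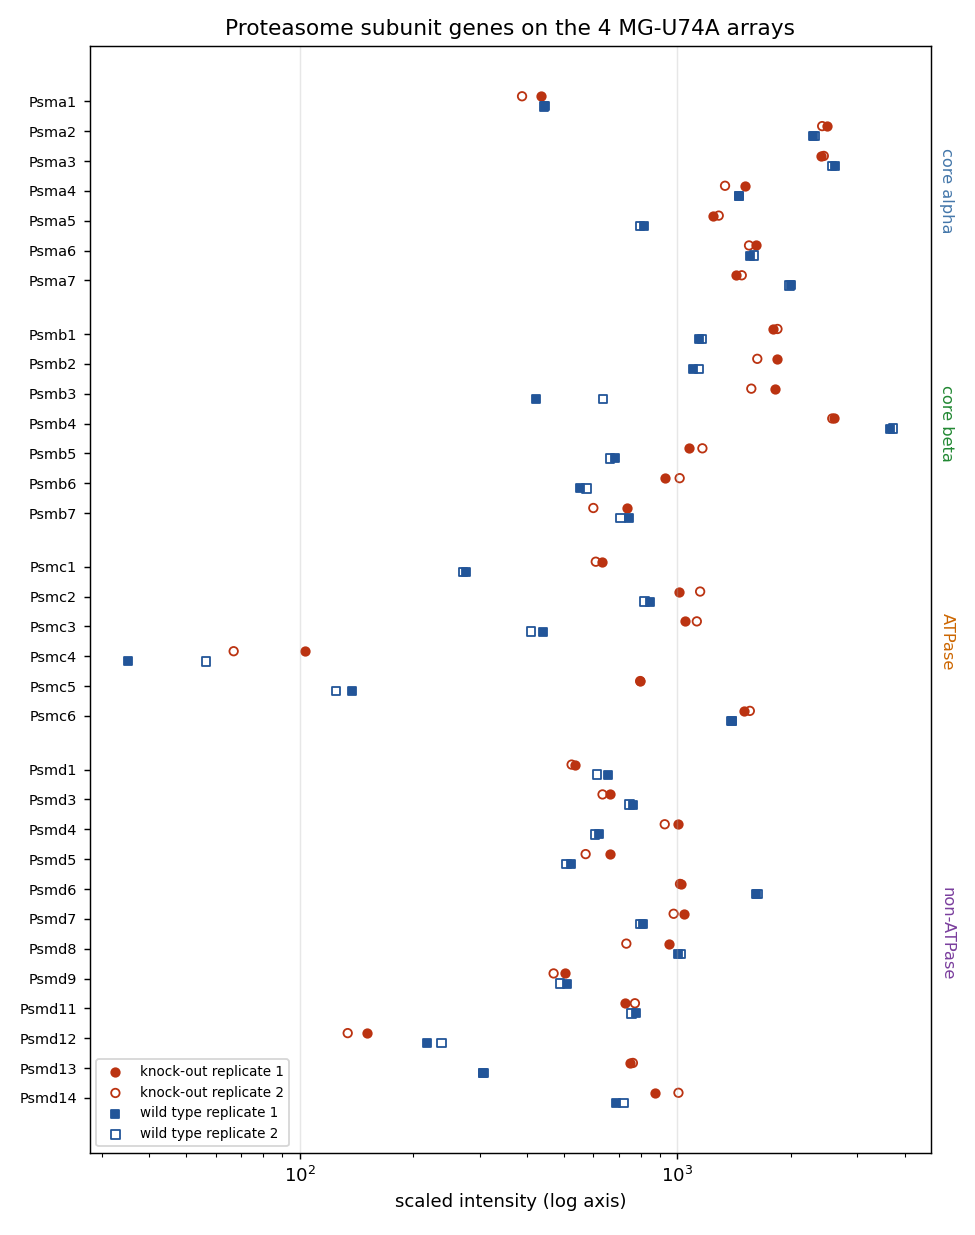
Scaled intensity (log axis) of the 32 tested proteasome genes on the 4 MG-U74A arrays, read from each gene's brightest probe set, with circles for knock-out and squares for wild type. Psmc5, Psmb3 and Psmd13 stand to the right in knock-out, and Psma7, Psmb4 and Psmd6 to the left.

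The median log2 change of the 37 member probe sets, knock-out minus wild type, was 0.20, where the median of all tested probe sets was -0.09. Their changes ran from -0.66 to 2.40 with a standard deviation of 0.69, against 1.04 for all tested probe sets. Both knock-out arrays lay above both wild type arrays for 20 of the 37 and below them for 11, so that 31 did not overlap, where 79.1% of all tested probe sets did not. The median difference between replicates of the members was 0.0967 log2 units in knock-out and 0.0357 in wild type. Over all tested probe sets, whose median intensity was lower, it was 0.154 in knock-out and 0.0788 in wild type.

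**Figure D2:**
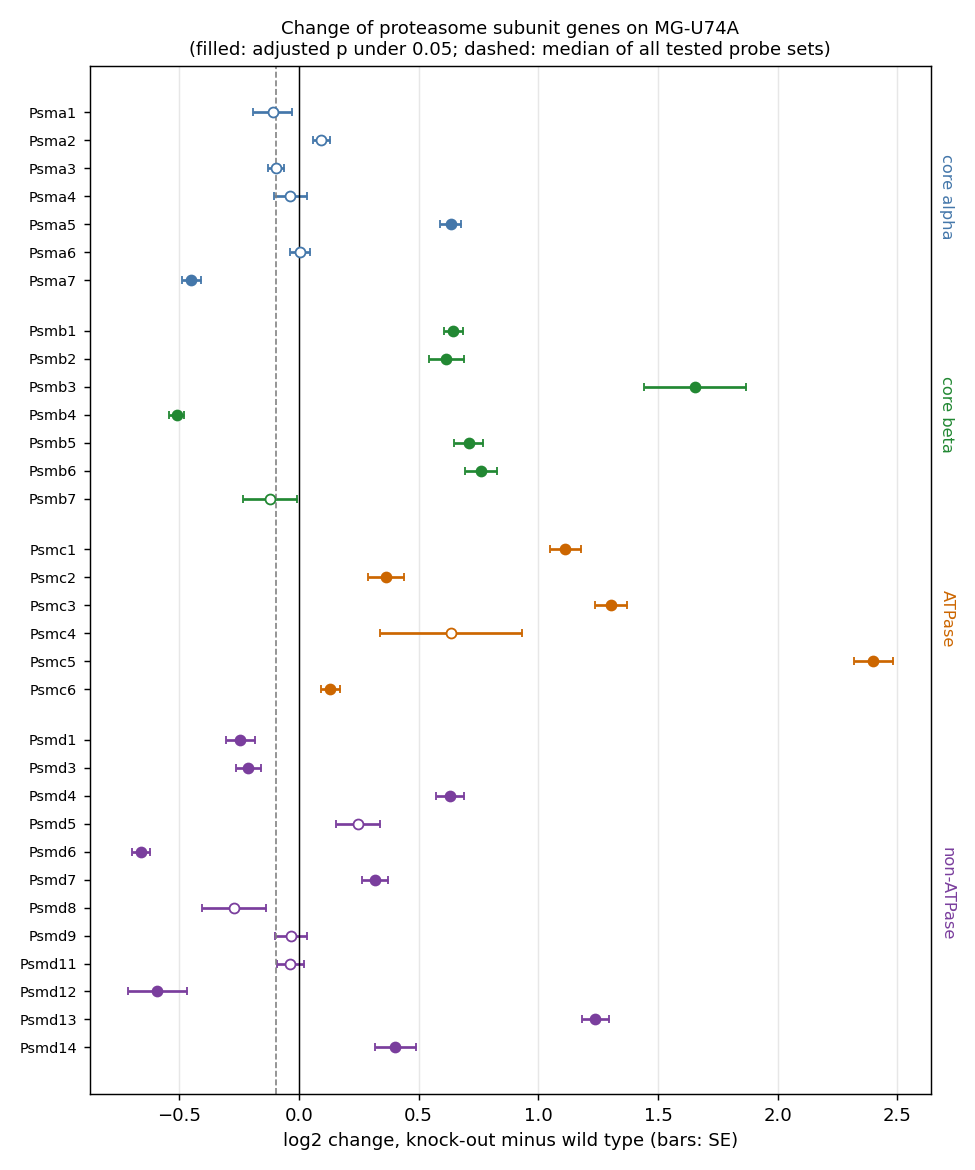
Log2 change, knock-out minus wild type, with its standard error for the 32 tested genes by role. Filled points passed an adjusted p of 0.05 and the dashed line marks the median of all tested probe sets at -0.09. The 6 ATPase genes lie to the right of 0, and the 12 non-ATPase genes lie on both sides.

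Promoters are shown for the called genes that rose by over 0.7 or fell by over 0.4 on the log2 scale, limits set after the values were seen, so that 6 genes that rose and 4 that fell can be set side by side. A RefSeq promoter (build GRCm38.p6) was found for 29 of the 35 genes, and Psmb1, Psmb2, Psmb7, Psmc3, Psmd3 and Psmd7 are named only. The 150 bases before the annotated start are printed 5′ to 3′ on the gene's strand, and capitals mark matches to the 3 motifs described below.
Psmc5 (chr11:106256035-106256184, plus strand): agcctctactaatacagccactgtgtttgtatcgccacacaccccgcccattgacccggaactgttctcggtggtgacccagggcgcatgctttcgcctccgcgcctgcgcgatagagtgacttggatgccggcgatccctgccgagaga
Psmc1 (chr12:100110052-100110201, plus strand): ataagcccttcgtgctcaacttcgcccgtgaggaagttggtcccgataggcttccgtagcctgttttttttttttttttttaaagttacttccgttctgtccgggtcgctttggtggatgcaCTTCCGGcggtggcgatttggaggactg
Psmb3 (chr11:97703284-97703433, plus strand): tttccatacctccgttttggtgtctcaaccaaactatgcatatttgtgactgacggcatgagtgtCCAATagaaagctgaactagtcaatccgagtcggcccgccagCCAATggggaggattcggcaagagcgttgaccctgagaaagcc
Psmb5 (chr14:54617996-54618145, minus strand): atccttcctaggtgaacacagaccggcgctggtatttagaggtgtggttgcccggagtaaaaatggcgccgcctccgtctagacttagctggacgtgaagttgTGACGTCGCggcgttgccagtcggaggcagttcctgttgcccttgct
Psmb6 (chr11:70525207-70525356, plus strand): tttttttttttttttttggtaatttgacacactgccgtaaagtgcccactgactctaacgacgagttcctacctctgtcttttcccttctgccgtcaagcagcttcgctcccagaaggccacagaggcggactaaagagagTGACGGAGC
Psmd13 (chr7:140882244-140882393, plus strand): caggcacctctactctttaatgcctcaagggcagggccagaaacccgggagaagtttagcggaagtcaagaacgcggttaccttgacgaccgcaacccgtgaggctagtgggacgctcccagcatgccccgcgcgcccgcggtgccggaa
Psmd6 (chr14:14120946-14121095, minus strand): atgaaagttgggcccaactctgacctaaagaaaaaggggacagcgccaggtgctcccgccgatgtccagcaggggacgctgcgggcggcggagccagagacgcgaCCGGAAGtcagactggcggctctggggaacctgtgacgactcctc
Psmd12 (chr11:107479378-107479527, plus strand): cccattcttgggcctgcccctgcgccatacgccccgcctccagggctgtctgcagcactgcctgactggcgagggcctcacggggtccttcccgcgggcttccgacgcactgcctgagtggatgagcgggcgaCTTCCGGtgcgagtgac
Psmb4 (chr3:94886959-94887108, minus strand): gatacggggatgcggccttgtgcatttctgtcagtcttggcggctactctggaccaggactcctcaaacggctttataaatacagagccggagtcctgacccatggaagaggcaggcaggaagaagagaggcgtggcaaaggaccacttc
Psma7 (chr2:180042465-180042614, minus strand): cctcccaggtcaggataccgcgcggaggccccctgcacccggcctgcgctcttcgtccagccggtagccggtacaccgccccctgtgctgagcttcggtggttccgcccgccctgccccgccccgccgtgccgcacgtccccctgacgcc

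Motifs were searched on both strands in the 250 bases before each annotated start. TGACNNNGC is the core of the antioxidant response element, through which Nrf1 (Nfe2l1) drives proteasome genes when the proteasome is impaired. It was found for 5 of the 29 genes, where 11.5% of all 27025 genes of the table hold it. These were Psmb5, Psmb6, Psmc6, Psmd9 and Psmd12, of which Psmb5, Psmb6 and Psmc6 rose, Psmd12 fell and Psmd9 was not called. CCAAT, the box bound by NF-Y, was found for 12 of the 29, against 37.5% of all genes. CCGGAAG, a core of sites for ETS factors, was chosen after the promoters had been seen and was found for 9 of the 29, against 7.83% of all genes. Of the genes with a promoter in the table, it was present for 4 of 11 that rose and 2 of 5 that fell. No match of one motif overlapped a match of another. A match is only a description of these letters.

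Core alpha genes were measured by 1 probe set each, all of which were tested on MG-U74A. Of the 7 genes 1 rose and 1 fell, with a median log2 change of -0.04. Psma5 had intensities of 1245 and 1288 on the knock-out arrays, against 818 and 797 on the wild type arrays. Its log2 change was 0.63 ± 0.04 (SE, adjusted p = 0.00105). Psma7, another subunit of the ring, had 1428 and 1483 in knock-out, against 2007 and 1985 in wild type. It changed by -0.45 ± 0.04 (adjusted p = 0.00175). For both genes the genotypes lay apart on all 4 arrays, in opposite directions.

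The other 5 alpha genes did not pass the threshold, with log2 changes between -0.11 for Psma1 and 0.09 for Psma2. Psma6 was the nearest to 0, with means of 1583 ± 46.5 in knock-out and 1577 ± 30.4 in wild type (SD, n = 2) and a log2 change of 0.00 ± 0.04. Psma3, at -0.10 ± 0.03 (adjusted p = 0.0743), and Psma2, at 0.09 ± 0.03 (adjusted p = 0.0862), had groups that did not overlap, and their changes were under 0.1 log2 units. Over these 5 genes the knock-out mean was between 0.924 and 1.07 times the wild type mean.

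Of the core beta genes 7 were tested on MG-U74A, where 5 rose and 1 fell, with a median of 0.65. Psmb3, a structural subunit, had 1816 and 1571 in knock-out, against 423 and 636 in wild type. Its mean was 3.20 times the wild type mean and its log2 change 1.66 ± 0.21 (adjusted p = 0.00521). The wild type replicates of Psmb3 were the farthest apart among the 37 tested member probe sets of MG-U74A, by 0.56 log2 units, and both lay far below the knock-out arrays.

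The structural subunit genes Psmb1 and Psmb2 rose by less than Psmb3. Psmb1 changed by 0.65 ± 0.04, and its other tested probe set also rose, by 0.40 ± 0.05. Psmb2 changed by 0.62 ± 0.07, with means of 1733 ± 147 in knock-out and 1121 ± 32.1 in wild type. Psmb4, a structural subunit, went the other way. It had 2598 and 2574 in knock-out, against 3663 and 3724 in wild type, a log2 change of -0.51 ± 0.03 (adjusted p = 7.41e-04). Its probe set has the suffix f, which marks probes that also match related sequences.

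The proteolytic sites of the constitutive core lie in Psmb5, Psmb6 and Psmb7. Psmb5, the chymotrypsin-like site, had 1072 and 1166 in knock-out, against 685 and 664 in wild type, a log2 change of 0.71 ± 0.06 (adjusted p = 0.00175). Psmb6, the caspase-like site, had 929 and 1015 in knock-out, against 552 and 574 in wild type, a change of 0.76 ± 0.07 (adjusted p = 0.00175). Both genes were higher on both knock-out arrays.

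Psmb7, the trypsin-like site, had 737 and 599.7 in knock-out, against 745 and 707 in wild type. The groups overlapped, and its change of -0.12 ± 0.11 did not pass the threshold (adjusted p = 0.413). Without knock-out replicate 1 Psmb7 passed as a fall of 0.26 (adjusted p = 0.0407), and without knock-out replicate 2 its change was 0.02. Its direction thus depended on which knock-out array was used, and the probe set carries the suffix f.

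Psmb5 was the only catalytic gene with several tested probe sets. A dimmer one on MG-U74A had 163 and 190.5 in knock-out, against 236 and 238 in wild type, a change of -0.38 ± 0.12 that missed the threshold (adjusted p = 0.0563). The one on MG-U74B had 2306 and 2364 in knock-out, against 1309 and 1929 in wild type, a change of 0.55 ± 0.20 (adjusted p = 0.131). That change was 0.27 without wild type replicate 1 and 0.82 without wild type replicate 2. The groups did not overlap on either, and the directions were opposed. The probe set that rose has the suffix s, for probes shared with other transcripts, and that of MG-U74B the suffix f.

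In the immunoproteasome Psmb9, Psmb10 and Psmb8 take the places of Psmb6, Psmb7 and Psmb5. All 3 rose on MG-U74A, and by more than their counterparts. Psmb9 changed by 2.98 ± 0.14, Psmb10 by 1.37 ± 0.09 and Psmb8 by 1.04 ± 0.08. The change of Psmb9 exceeded that of Psmb6 by 2.22 log2 units, that of Psmb10 exceeded that of Psmb7 by 1.49, and that of Psmb8 exceeded that of Psmb5 by 0.33. In each of these 3 comparisons the knock-out arrays did not overlap the wild type arrays, where 79.1% of single tested probe sets did not. An exact two-sided permutation test gave p = 0.333 for each, the smallest p that 2 arrays against 2 allow, so none can pass. The standard errors of these differences were 0.19, 0.15 and 0.17, and the smallest, of Psmb8 over Psmb5, was 0.17 without knock-out replicate 1.

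**Figure D3:**
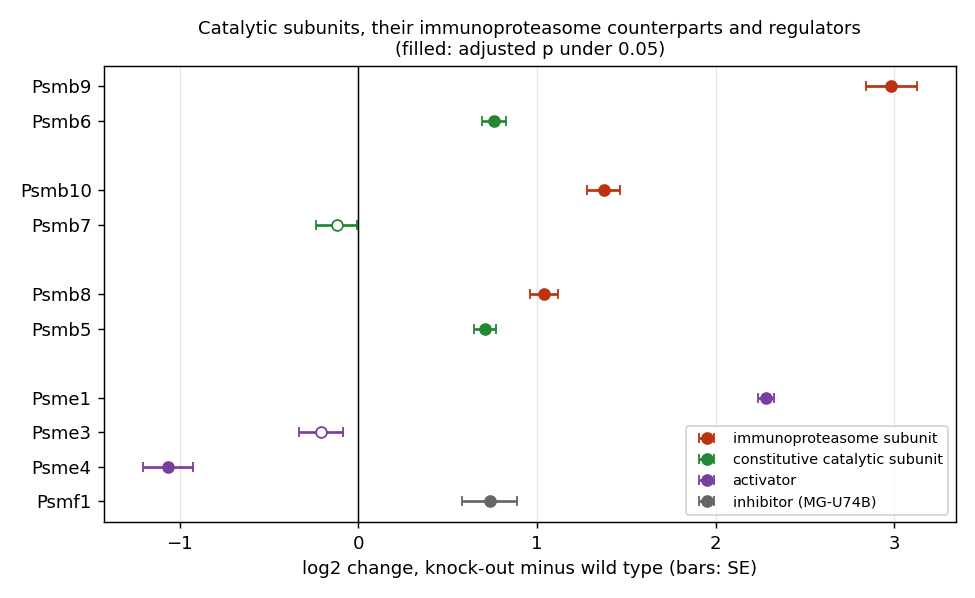
Log2 change with its standard error for each constitutive catalytic gene below its immunoproteasome counterpart, and for the activators and the inhibitor of the core. Filled points passed an adjusted p of 0.05. Psmb9 reached 2.98 beside 0.76 for Psmb6, and the activators run from -1.07 for Psme4 to 2.28 for Psme1.

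ATPase genes were the most uniform in direction. The 6 ATPases form a ring at the base of the cap. All 6 were tested on MG-U74A, 5 rose and 0 fell, and the median was 0.87. For all 6 both knock-out arrays were above both wild type arrays, where 79.1% of all tested probe sets had no overlap in either direction. Without wild type replicate 1, or without wild type replicate 2, Psmc1, Psmc3 and Psmc5 still rose and the other 3 did not pass.

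Psmc5 had the largest change of all members. It had 798 and 798 on the knock-out arrays, against 138 and 125 on the wild type arrays. Its mean was 6.09 times the wild type mean and its log2 change 2.40 ± 0.08 (adjusted p = 2.37e-04). Psmc3, whose tail inserts into the alpha ring and helps open its gate, had 1052 and 1127 in knock-out, against 442 and 411 in wild type, a change of 1.305 ± 0.07 (adjusted p = 4.99e-04). A further probe set of Psmc3 rose by 1.46 ± 0.10, and the dimmest, at 0.20 ± 0.22, did not pass. The brightest and the dimmest probe sets of Psmc3 have the suffix f. Psmc1, which also has such a tail, had 632 and 609 in knock-out, against 277 and 271 in wild type, a change of 1.11 ± 0.06 (adjusted p = 6.71e-04).

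The other ATPase genes moved less or were less certain. Psmc2 changed by 0.36 ± 0.08 (adjusted p = 0.0198). Psmc6 changed by 0.13 ± 0.04, with an adjusted p of 0.04997 that lies at the threshold, and it was called under 6 of 12 alternative settings. Its probe set on MG-U74B, with means of 685 ± 8.06 in knock-out and 708 ± 7.29 in wild type, changed by -0.05 ± 0.13 (adjusted p = 0.828). Psmc4 was dim, with 104 and 66.9 in knock-out, against 35.1 and 56.5 in wild type, and its change of 0.64 ± 0.30 did not pass (adjusted p = 0.144). The ATPases thus differed among themselves from 0.13 to 2.40 log2 units.

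**Figure D4:**
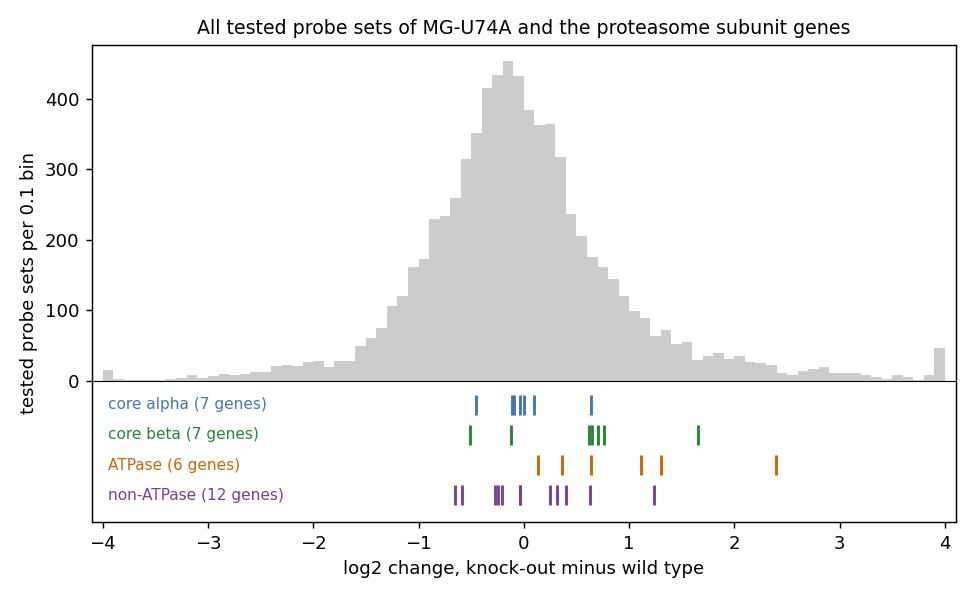
Number of probe sets tested on MG-U74A in each bin of log2 change, knock-out minus wild type, with the 32 proteasome genes as ticks below, by role. The end bins also hold the probe sets beyond them. The ticks lie between -0.66 and 2.40, inside the range of all tested probe sets.

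Non-ATPase genes were split. Of 14 genes 12 were tested on MG-U74A, 4 rose and 4 fell, and the median was -0.03. The lid of the cap, which holds Psmd3, Psmd6, Psmd7, Psmd8, Psmd11, Psmd12, Psmd13 and Psmd14, had 3 genes that rose, 3 that fell and 2 that were not called. Genes of the lid thus changed in both directions, as did all genes tested on MG-U74A, of which 22.7% rose and 30.2% fell. Without wild type replicate 1, or without wild type replicate 2, Psmd13 and Psmd4 rose and Psmd6 fell, and no other non-ATPase gene passed.

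Psmd13, a structural lid subunit, had 750 and 763 in knock-out, against 306 and 307 in wild type. Its change was 1.24 ± 0.06 (adjusted p = 3.89e-04), and replicates of either genotype were nearly equal. Psmd14, the deubiquitinase that cuts the ubiquitin chain off the substrate, had 872 and 1008 in knock-out, against 687 and 720.0 in wild type, a change of 0.40 ± 0.09 (adjusted p = 0.0212). Psmd7, its partner in the lid, changed by 0.32 ± 0.05. The enzyme of the lid and its partner therefore rose on these arrays, both by less than Psmd13.

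The lid genes Psmd6, Psmd12 and Psmd3 fell. Psmd6 had 1025 and 1017 in knock-out, against 1620.1 and 1632 in wild type, a change of -0.66 ± 0.04 (adjusted p = 6.08e-04). Psmd12 had 151 and 134 in knock-out, against 217 and 238 in wild type, a change of -0.59 ± 0.12 (adjusted p = 0.0193), on a probe set with the suffix f. Psmd3 changed by -0.21 ± 0.05 (adjusted p = 0.0332). All 3 were below the wild type arrays on both knock-out arrays, where 79.1% of all tested probe sets had no overlap in either direction. Psmd3 lost its call under 5 of 12 alternatives, with an adjusted p of 0.07175 with the replicate number as a block.

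Psmd8, at -0.27 ± 0.13, and Psmd11, at -0.04 ± 0.06, did not pass. A second probe set of Psmd11, with means of 606 ± 3.59 in knock-out and 829.5 ± 10.7 in wild type, fell by 0.44 (SE 0.05, adjusted p = 0.00317). Psmd11 therefore gave a fall or no call depending on the probe set. Of the 4 genes with several tested probe sets on MG-U74A, which were Psmb1, Psmb5, Psmc3 and Psmd11, 0 had probe sets called in opposite directions.

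At the base of the cap Psmd4, a receptor for ubiquitin chains, rose and the scaffold gene Psmd1 fell. Psmd4 had 1004 and 927 in knock-out, against 622 and 606 in wild type, a change of 0.63 ± 0.06 (adjusted p = 0.00231). Psmd1 had 536 and 525 in knock-out, against 654 and 613 in wild type, a change of -0.24 ± 0.06 (adjusted p = 0.0317). The fall of Psmd1 passed under 5 of 12 alternative settings, and the rise of Psmd4 under all 12. Psmd2, the other scaffold, had 74.2 and 75.2 in knock-out, against 42.7 and 56.0 in wild type. Its mean over the 4 arrays of 62.0 lay just under the minimum of 62.5 for testing, and without that minimum its change of 0.43 ± 0.17 did not pass.

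The assembly chaperones gave no call. Psmd5 changed by 0.25 ± 0.09 (adjusted p = 0.0847) and Psmd9 by -0.03 ± 0.07. Psmd10, known as gankyrin, was not tested because its mean was low, with 2.40 and 22.4 in knock-out, against 82.9 and 79.1 in wild type. Without the minimum for testing, its change by limma of -1.56 ± 0.35 did not pass (adjusted p = 0.0748). With these 3 genes left out, 15 of 30 tested genes rose and 6 fell.

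On MG-U74B 2 of the 5 member probe sets were tested, those of Psmb5 and Psmc6 given above, and limma called 0 of them, where 17.5% of all tested probe sets were called, 8.59% as rises and 8.87% as falls. By gene these shares were 19.2%, 9.60% and 9.60%. At an unadjusted p under 0.05 limma called 1, Psmb5, where 35.0% of all tested probe sets passed, against 59.6% on MG-U74A. Both member probe sets had genotypes that did not overlap, which held for 65.0% of all tested probe sets. Psmb11, the thymus subunit, was listed below 0 on all 4 arrays.

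Other genes of the pathway came from lists set by function. Beside their counts, 22.7% of all genes tested on MG-U74A rose and 30.2% fell, and on MG-U74B 9.60% rose and 9.60% fell. The activator gene Psme1, an interferon-induced cap subunit, had 2178 and 2189 in knock-out, against 435 and 423 in wild type. Its change was 2.28 ± 0.04 (adjusted p = 9.54e-05). Psme4, an activator of the nucleus, had 191 and 249.9 in knock-out, against 487 and 484 in wild type, a change of -1.07 ± 0.14 (adjusted p = 0.00552). Psme3, a nuclear relative of Psme1, was at -0.21 ± 0.12 and did not pass. Over the 6 genes of immunoproteasome subunits and activators tested on MG-U74A 4 rose and 1 fell. The inhibitor gene Psmf1 rose by 0.74 ± 0.15 on its brightest probe set of MG-U74B (adjusted p = 0.0382), while its other tested probe sets, at -0.38 ± 0.29 and 0.02 ± 0.71, did not pass.

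Of 9 tested genes for assembly factors and proteasome-bound proteins on MG-U74A 4 rose and 1 fell, with a median of 0.11. Among all genes tested on that array type 52.8% were called. Sem1, a small lid subunit without a Psm symbol, rose by 0.52 ± 0.07. Pomp, which guides assembly of the core, rose by 0.26 ± 0.05, and its fellow core chaperones Psmg2 and Psmg4 by 0.60 ± 0.13 and 0.29 ± 0.06. Txnl1, a thioredoxin bound to the cap, fell by 0.94 (SE 0.07). On MG-U74B 1 of 4 tested genes rose, the deubiquitinase Uchl5, by 1.06 ± 0.17, whereas its probe set on MG-U74A was at 0.08 ± 0.11. A dimmer probe set of Uchl5 on MG-U74B, at 0.28 ± 0.26, did not pass.

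A list of 17 ubiquitin genes, activating enzymes and proteins that carry tagged substrates to the proteasome had 5 tested genes on MG-U74A, of which 4 fell and 1 rose. The shuttle genes Ubqln2, Rad23b and Ubqln1 changed by -1.52 ± 0.06, -0.94 ± 0.09 and -0.74 ± 0.04. Vcp, the segregase that pulls substrates out of membranes, changed by -0.32 ± 0.09 on its brightest probe set. Another tested probe set of Vcp, at 0.24 ± 0.22, did not pass. The Vcp cofactor Ufd1 rose by 0.71 ± 0.19. Ubqln2 had 368 and 344 in knock-out, against 1062 and 1074 in wild type, and another probe set of it on MG-U74B, at 0.46 ± 0.31, did not pass. On MG-U74B 1 of 5 tested genes of the list rose, the Vcp cofactor Nsfl1c, by 1.07 ± 0.16, and the other 4 gave no call. The median there was 0.04.

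The transcription factor genes of the proteasome gave few calls. Nfe2l1 was at -0.16 ± 0.07 and Nfe2l2 at 0.28 ± 0.09, neither past the threshold (adjusted p = 0.113 and 0.0636). A dimmer probe set of Nfe2l1 went the other way, at 0.90 ± 0.37, and did not pass either (adjusted p = 0.114). Of 5 tested genes of that list on MG-U74A only Mafg, a small partner of Nfe2l1 and Nfe2l2, changed, by -1.17 ± 0.13 (adjusted p = 0.00379). Its other probe set there also fell, at -0.84 ± 0.13, while that tested on MG-U74B, at 2.18 ± 1.06, did not pass. On MG-U74B limma called 0 of 3.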

How the data were processed

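Per the deposited files, the authors gave 1 linear intensity for each probe set, scaled by them so that an array's mean, trimmed by 2% at each end, was 250.2 for MG-U74A and 250.1 for MG-U74B. Their software is not given in these sources. Arrays of a type were set to the common trimmed mean. Values under 0 became 0, and 25.0 was added before taking log2, so changes of dim genes are understated. Probe sets with a mean below 62.5 and 66 control probe sets per type were left out, which left 7516 of 12488 probe sets of MG-U74A and 7861 of 12477 of MG-U74B. Knock-out was compared with wild type by limma 3.58.1 (lmFit, eBayes with trend, two-sided, Benjamini-Hochberg adjustment per array type) in R 4.3.3. Members, lists and tests were chosen with earlier results of these data known. Means are over 2 arrays with SD, and log2 changes have SE. Symbols came from the array annotation, updated through a RefSeq table of GRCm38.p6. By rule, values on every array are given for Psmb5, Psmb6, Psmb7, Psmd4, Psmd14 and, in each role, up to 3 called rises and 3 called falls with the largest changes and no overlap of genotypes. Values on every array of Psmc4, Psmd2, Psmd10, Psme1, Psme4 and Ubqln2 were added after they had been seen. Data were simulated with known changes in a small part of the probe sets. There 43.4% of changes of 1 log2 unit were recovered for MG-U74A and 0.674% for MG-U74B. In the real data 52.9% of tested probe sets of MG-U74A were called, so these shares do not give the sensitivity of the real comparison. The number of arrays limits the precision. The targeted gene is not reported here, so genotypes are as labelled.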

Additional observations from a re-analysis of the deposited data

How the results depend on the processing

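Of the 21 proteasome genes called on MG-U74A, 14 were called under all 12 alternatives, of which 11 rose and 3 fell, and all 21 kept their direction. Deviations of same-numbered arrays correlated at 0.0241 on MG-U74A and 0.0316 on MG-U74B. Such a correlation over scaled probe sets cannot show whether same-numbered arrays were prepared together. With the replicate block 21 member probe sets were called in place of 24, 16 as rises and 5 as falls, and 18 genes in place of 21. Psmd1 lost its call with the block, and also under quantile normalization, without the variance trend and without any 1 array. Psmd3 lost its call with the block, under quantile normalization, without the variance trend and without wild type replicate 1 or 2. Psmd12 lost its call without wild type replicate 1 or 2, and Psmd14 there and without the filter. Calls of member probe sets ranged over 17 to 27 with 1 array left out, and calls of genes over 14 to 23. Calls among all tested probe sets of MG-U74A ranged over 2264 to 4097. The lowest came without wild type replicate 2, beside 2311 without wild type replicate 1. The members' median change there was 0.13 with the filter at 50%, 0.24 with probe sets above 0 on all arrays, and 0.13 to 0.27 with 1 array left out. The change of Psmb7 was -0.26 without knock-out replicate 1 and 0.021 without knock-out replicate 2. On MG-U74B 0 members were called under any alternative. All tested probe sets gave 764 calls without the filter, 638 without the variance trend, and 0 to 538 with 1 array left out, with 0 without wild type replicate 1 or 2 and 312 without knock-out replicate 1. The members' median of 0.25 there became 0.00 without the filter, which adds 3 probe sets. Alternatives for the differences between immunoproteasome and constitutive subunits were chosen after seeing the data. They gave 2.04 to 2.43 for Psmb9 over Psmb6, 1.37 to 1.62 for Psmb10 over Psmb7 and 0.17 to 0.49 for Psmb8 over Psmb5. The causes of these shifts were not tested.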
